A study of Mus musculus with 4 samples.

Results

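Transcription regulators that pattern the developing inner ear were examined in primary cell cultures from the mouse inner ear. The 41 genes were chosen by symbol: Pax, Six2 and Six4, Eya, Sox, Gata, Dlx, Hmx, Lmx, Otx and related homeobox genes, with the Id genes. All 41 were among the 24346 gene symbols of the deposited values. RNA sequencing covered 2 groups of 2 libraries each, 1 group from primary cultures of vestibular cells and 1 from primary cultures of cochlear cells. The labels name the tissue as inner ear and give no genotype, strain, age, treatment, passage or culture time for either group. They do not say whether libraries 1 and 2 of a group came from different animals or cultures, so each p-value measures the spread between libraries, which may be technical.

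The inner ear forms from a thickening of head ectoderm, the otic placode, which folds into a vesicle. Pax factors, sine oculis homeobox factors and Eya cofactors set up the placode. Later, Dlx and Hmx factors act in the dorsal, vestibular part of the vesicle, while Gata3 and Sox2 are needed for the sensory regions, those of the cochlea included. Lmx1a marks nonsensory otic epithelium, and Sox10 marks both otic epithelium and neural crest derivatives such as glia and pigment cells. Many of these factors persist in the mature ear in supporting cells, nonsensory epithelium or the surrounding mesenchyme.

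Levels are in FPKM, fragment counts divided by transcript length and by sequencing depth, so that levels of different genes can be compared. Genes with a mean of at least 1 FPKM over the 4 libraries were tested, which kept 28 of the 41 genes and left 13. Differences are vestibular minus cochlear values of log2(FPKM + 1), so those of low genes come out too small. Paired values are given for libraries 1 and 2 in that order. None of the 28 passed limma at an adjusted p of 0.05 (smallest adjusted p 0.115, for Sox11), where 0.0303% of all 13200 genes tested passed. At an unadjusted limma p under 0.05 there were 13 of 28 (46.4%), against 18.2% of all genes tested. Without cochlear library 2 the count was 7 of 28, and 1018 of the 13200 genes. Of the 13, 10 had the higher mean in cochlear cultures (10.6% of all genes) and 3 in vestibular cultures (7.61%). The 2 groups did not overlap in 17 of 28 genes (60.7%), near the 55.3% of all genes tested. Both cochlear libraries lay above in 12 of them (42.9% of the 28, against 28.4% of all) and both vestibular libraries in 5 (17.9%, against 26.9%). Over all 41 genes with no filter, 12 lay each way, against 25.5% of 18257 genes for the vestibular and 24.2% for the cochlear side. The median absolute log2 difference was 0.78 in the 28 genes and 0.25 in all genes tested. Sox11, Sox21 and Otx1 passed the filter through their cochlear values alone, with a vestibular mean under 1 FPKM. Sox11 and Sox21 are among the 13 and the 10 above, and all 3 are among the 12, so these counts rest in part on the filter. With 2 libraries against 2, the smallest p of an exact permutation test is 0.333, so no single gene could be called that way.

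**Figure D1:**
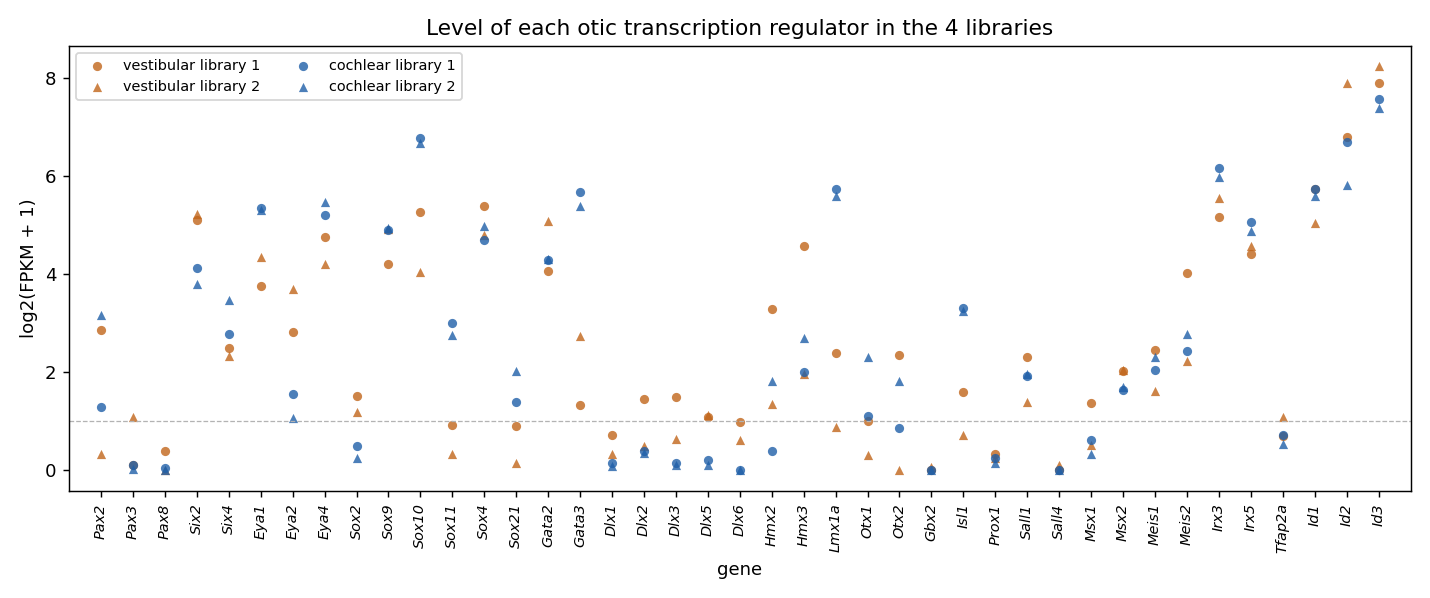
Levels of the 41 genes in each library, as log2(FPKM + 1) on the vertical axis. Circles are libraries 1 and triangles libraries 2, vestibular in orange and cochlear in blue, and the dashed line marks 1 FPKM. Lmx1a and Gata3 have blue points far above the orange ones, Id3 is at the top with up to 301 FPKM, and the Dlx genes lie near the line or under it.

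Markers of several cell types were measured in the same libraries, and some of their summed levels moved with the groups. The summed level of 14 epithelial markers was 1215 and 112 FPKM in libraries 1 and 2 of vestibular cells, against 2150 and 2621 in those of cochlear cells. None was at 0, and 12 of the 14 had both cochlear libraries above both vestibular ones. Summed over 10 fibroblast and mesenchyme markers the level was 3134 and 6381 FPKM with vestibular and 1471 and 980 with cochlear cells. The 8 macrophage markers summed to between 5961 and 7752 FPKM in 3 libraries and to 22.5 in cochlear library 2, and the 8 cartilage markers to 4231 in vestibular library 2 and at most 799 elsewhere. The 8 hair cell markers summed to between 24.2 and 37.9 FPKM, most of it from the myosin genes Myo7a and Myo6, which stood between 5.81 and 24.5 FPKM. The other 6 were under the filter, with Atoh1, the factor that specifies hair cells, listed at 0 in 3 libraries and Otof, a synaptic gene, at 1.63 or less. The 10 markers of supporting cells and nonsensory otic epithelium summed to 160 and 380 FPKM with vestibular and 980 and 1492 with cochlear cells. Of the 8 that reached the filter, however, 3 had both cochlear and 3 both vestibular libraries above. Tecta, under the filter, also had both vestibular libraries above. Fbxo2, at 114 and 98.0 against 855 and 1275 FPKM, made up most of the cochlear sums, while Otog, a gene of the membranes over the sensory cells, lay the other way at 4.05 and 3.61 against 1.62 and 0.431. In such bulk samples, fewer cells of a type and less RNA per cell cannot be told apart.

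Promoter windows were read from RefSeq (GRCm38.p6, the assembly that mm10 names) for 29 of the 41 genes, as the 250 bases before the outermost start in that table. That start need not be the end of the GENCODE gene span: the Gata3 and Lmx1a windows lie inside it, and 6 of the 29 windows lie wholly within annotated exons. The median GC content was 61.6% in these 29 windows and 55.2% in those of 17486 protein-coding genes, and the median number of CG pairs was 17 and 10. On both strands 7 short motifs were searched. CCAAT lay in 14 of 29 windows (48.3%, against 36.5% of all). The GATA motif AGATAA lay in 1 window (3.45% against 9.1%), the SOX motif ACAATG in 1 (3.45% against 9.57%) and the homeobox motif TAATTA in 3 (10.3% against 4.46%). The E-box CAGCTG lay in 5 (17.2% against 11.6%), TATAAA in 4 (13.8% against 12.4%), and GGCGCC, a motif known from BMP-responsive Id promoters, in 7 (24.1% against 12.1%). A match is a description of letters and not a binding site. The windows of 4 genes are shown because these genes had the smallest p-values among those with a log2 difference of at least 1 in size and a window in the table that lay mostly outside annotated exons, and bases within exons were left off. Capitals mark the motifs found, 5′ to 3′ on the gene's strand.
Lmx1a, chr1:167689308-167689556, plus strand: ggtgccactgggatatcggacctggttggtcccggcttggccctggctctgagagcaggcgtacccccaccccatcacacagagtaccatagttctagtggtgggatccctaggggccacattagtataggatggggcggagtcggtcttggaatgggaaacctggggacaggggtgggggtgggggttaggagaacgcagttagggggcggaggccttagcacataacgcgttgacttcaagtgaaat
Sox11, chr12:27342719-27342968, minus strand: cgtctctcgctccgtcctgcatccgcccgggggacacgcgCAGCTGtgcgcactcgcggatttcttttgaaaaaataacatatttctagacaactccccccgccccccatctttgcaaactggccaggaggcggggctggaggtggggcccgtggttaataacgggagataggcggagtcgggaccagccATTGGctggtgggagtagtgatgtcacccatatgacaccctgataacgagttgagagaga
Isl1, chr13:116309690-116309938, minus strand: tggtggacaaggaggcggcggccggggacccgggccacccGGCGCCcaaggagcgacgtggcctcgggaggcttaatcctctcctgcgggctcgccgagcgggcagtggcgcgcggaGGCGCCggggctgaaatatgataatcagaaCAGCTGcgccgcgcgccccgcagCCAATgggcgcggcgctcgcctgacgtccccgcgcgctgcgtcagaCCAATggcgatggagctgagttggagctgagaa
Six2, chr17:85688275-85688504, minus strand: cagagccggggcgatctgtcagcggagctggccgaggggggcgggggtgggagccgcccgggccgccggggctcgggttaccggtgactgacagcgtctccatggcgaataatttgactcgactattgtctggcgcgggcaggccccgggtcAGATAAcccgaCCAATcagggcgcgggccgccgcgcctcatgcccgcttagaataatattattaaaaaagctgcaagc
The Lmx1a window holds none of the 7 motifs, and the Isl1 window holds GGCGCC at 2 places, CCAAT at 2 places and 1 E-box. In the Sox11 window CCAAT lies on the other strand, 60 bases before the start, beside 1 E-box. The Six2 window is the only one of the 29 with the GATA motif, which lies 98 bases before the start and next to a CCAAT box. These 4 windows thus share no motif, and 3 of them hold CCAAT.

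Lmx1a, a LIM homeobox factor of nonsensory otic epithelium, had the largest difference of the 28 genes. Its level was 4.28 and 0.842 FPKM with vestibular cells and 52.1 and 47.0 with cochlear cells. Both cochlear libraries lay far above both vestibular ones, and the cochlear mean was 19.3 times the vestibular mean. The log2 difference was -4.02 (SE 0.57, limma adjusted p = 0.123), and it lay between -4.78 and -3.26 when each library was left out in turn. Lmx1a spans chromosome 1 from 167689237 to 167848741 on the plus strand of mm10. Lmx1b, its paralog, stood at no more than 0.274 FPKM in any library.

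Gata3, a zinc finger factor of the prosensory domain and of spiral ganglion neurons, was the other gene with a difference of this order. It stood at 1.53 and 5.70 FPKM with vestibular cells and at 50.0 and 40.9 with cochlear cells. The groups were far apart, with a cochlear mean 12.6 times the vestibular mean and a log2 difference of -3.49 (SE 0.54, limma adjusted p = 0.132). Gata2, its relative in the ear and in blood cells, stood at 15.8 and 33.1 FPKM with vestibular and 18.5 and 18.9 with cochlear cells. The Gata2 groups overlapped, since the cochlear values lay between the vestibular ones. The gene of Gata3 (chromosome 2, 9857078 to 9890034, minus strand) overlaps 4930412O13Rik on the other strand and 9230102O04Rik on its own. 4930412O13Rik stood at 0.0273 and 1.11 FPKM with vestibular and 5.42 and 4.83 with cochlear cells. 9230102O04Rik was listed at 0 and 0.178 with vestibular cells, and at 3.84 and 5.12 with cochlear cells. Both neighbours thus have the order of Gata3. Whether strand was used in counting is not given in the sources used here, and how fragments were divided among the 3 genes was not tested.

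**Figure D2:**
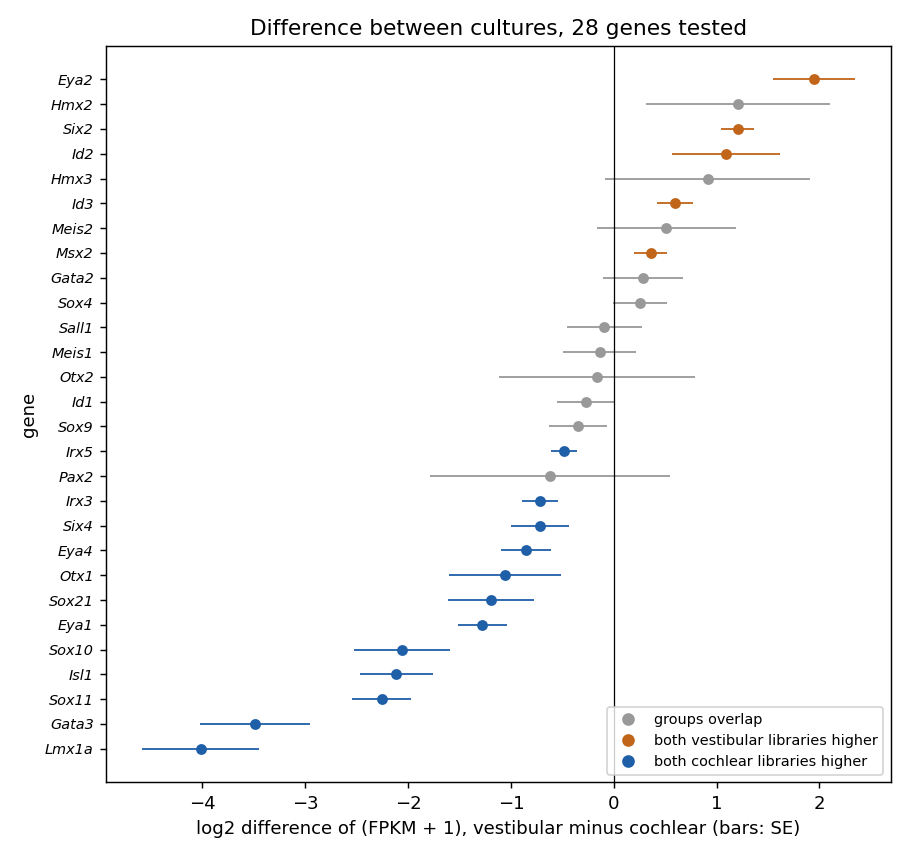
Log2 difference of FPKM + 1, vestibular minus cochlear, for the 28 genes tested, with bars for the SE of the limma fit (2 libraries a group). Blue marks genes with both cochlear libraries above, orange those with both vestibular libraries above, and grey those whose groups overlap. Lmx1a (-4.02) and Gata3 (-3.49) lie farthest left and Eya2 (1.95) farthest right.

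Among the Pax, Eya and sine oculis (Six2, Six4) genes, the Pax genes were low and uneven. Pax2, a factor of the otic placode and the cochlear duct, stood at 6.31 and 0.267 FPKM with vestibular and 1.44 and 7.93 with cochlear cells. Each group held a high and a low library, and the groups overlapped. Pax8, its partner in placode formation, was listed at 0.310 and 0 FPKM with vestibular and 0.0391 and 0 with cochlear cells. Pax3, a factor of neural crest and pigment cell precursors, reached 1.13 FPKM in vestibular library 2, against at most 0.0874 elsewhere. The 6 melanocyte markers summed to 227 FPKM in that library and to between 4.76 and 9.94 in the others, with Tyrp1 listed at 0 in those 3. Their part in the Pax3 values was not tested.

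Eya proteins are coactivators and phosphatases that bind sine oculis homeobox factors, and the 3 genes did not share a direction. Eya1, whose human counterpart is mutated in branchio-oto-renal syndrome, stood at 12.5 and 19.5 FPKM with vestibular and 40.0 and 38.8 with cochlear cells. Its cochlear mean was 2.46 times the vestibular mean (log2 difference -1.28, SE 0.24, limma adjusted p = 0.163). Eya4, a deafness gene, stood at 26.1 and 17.4 FPKM against 35.8 and 43.1, with the cochlear libraries again above (log2 difference -0.85, SE 0.24). Eya2 lay the other way, at 6.05 and 12.01 FPKM with vestibular and 1.96 and 1.09 with cochlear cells. Its vestibular mean was 5.93 times the cochlear mean (log2 difference 1.95, SE 0.40, limma adjusted p = 0.179). In both groups Eya1 and Eya4 had higher levels than Eya2. Eya3, a family member outside the 41, stood between 10.1 and 11.1 FPKM in all 4 libraries.

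Six2, a homeobox factor of mesenchyme and kidney progenitors, stood at 33.5 and 36.4 FPKM with vestibular and 16.5 and 12.9 with cochlear cells. The vestibular libraries lay above, with a mean 2.38 times the cochlear mean and a log2 difference of 1.20 (SE 0.16, limma adjusted p = 0.120). Six2 lies on chromosome 17 from 85684277 to 85688274 on the minus strand. Six4 stood at 4.67 and 4.02 FPKM against 5.92 and 10.1, with the cochlear libraries above (log2 difference -0.72, SE 0.29). Without cochlear library 2 this difference was -0.38. Six4 thus lay on the side of Eya1 and Eya4, and Six2 on the side of Eya2. On that side too lay 9 of the 10 fibroblast and mesenchyme markers. The level in vestibular library 2 over that in vestibular library 1 was 2.04 for their sum, 1.98 for Eya2 and 1.09 for Six2. The sum rose mainly through Col1a2 (1140 to 3452 FPKM) and Dcn (494 to 1542). Col1a1 (371 to 134), Thy1 (340 to 205) and Prrx1 (60.2 to 34.1) fell, and the other markers rose, Pdgfra only from 28.5 to 29.4. The markers thus had no common order between these libraries. The part of mesenchymal content in the values of Six2 and Eya2 was not tested.

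Of the 6 Sox genes, Sox10 was the highest in both cochlear libraries, while Sox4 lay above it in both vestibular ones. Sox10 stood at 37.7 and 15.5 FPKM with vestibular and 108 and 100.4 with cochlear cells. The cochlear libraries were close together and both above, with a mean 3.92 times the vestibular mean (log2 difference -2.06, SE 0.46, limma adjusted p = 0.189). Sox10 is also a glial factor, and the 9 Schwann cell and glial markers summed to 175 and 364 FPKM with vestibular and 159 and 107 with cochlear cells, with both cochlear sums below. Erbb3, a receptor of crest cells that many epithelia also express, had 5.88 and 3.01 against 17.2 and 18.7 FPKM, so 2 of the 9 markers, Erbb3 and Mbp, had the order of Sox10. Foxd3, a factor of early neural crest, was listed at 0 in both cochlear libraries.

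Sox11 and Sox4 encode closely related factors of progenitor cells. Sox11 stood at 0.889 and 0.263 FPKM with vestibular and 7.04 and 5.78 with cochlear cells. The groups were well apart, with a ratio of means of 11.1 (log2 difference -2.26, SE 0.28, limma adjusted p = 0.115). Sox4 was the more abundant of the pair in every library, at 41.0 and 26.7 FPKM with vestibular and 24.8 and 30.8 with cochlear cells, and its groups overlapped. Sox21, a factor of supporting cells, was low, at 0.875 and 0.105 against 1.65 and 3.09 FPKM.

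Sox2, which maintains sensory progenitors and supporting cells, did not reach the filter. It stood at 1.86 and 1.30 FPKM with vestibular and 0.411 and 0.201 with cochlear cells, with both vestibular values above. The vestibular mean was 5.17 times the cochlear mean, and in a fit without the filter the log2 difference was 0.98 (SE 0.18, limma adjusted p = 0.191). Sox2ot, a noncoding transcript that overlaps Sox2 on the same strand, reached 0.379 FPKM. Sox9, a factor of the otic vesicle and of cartilage, stood at 17.4 and 29.4 FPKM with vestibular and 28.7 and 29.5 with cochlear cells. Vestibular library 1 was the lowest for Sox9, and the other 3 were close together. The cartilage markers summed to 799 and 4231 FPKM with vestibular and 195 and 193 with cochlear cells, and their part in the Sox9 values was not tested.

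Isl1, a LIM homeobox factor of prosensory cells and ganglion neurons, stood at 2.03 and 0.650 FPKM with vestibular and 8.88 and 8.48 with cochlear cells. The cochlear mean was 6.47 times the vestibular mean (log2 difference -2.11, SE 0.35, limma adjusted p = 0.141). Its paralog Isl2, not among the 41, was listed at 0.319 and 0 against 5.62 and 4.56 FPKM, in the same order. The sum of 8 neuronal markers lay the other way, at 16.8 and 11.6 FPKM with vestibular and 4.28 and 2.69 with cochlear cells. Only 2 of the 8, Tubb3 and Stmn2, reached the filter, and they made up most of these sums. Elavl4 and Syt1 had the higher mean in cochlear cells, with groups that overlapped, and the rest in vestibular cells. The part of neuronal content in the Isl1 values was not tested. Otx1, a factor of the cochlear duct and lateral canal, had 1.0003 and 0.252 against 1.16 and 3.998 FPKM. Otx2, its relative, was given as 4.11 and 0 FPKM with vestibular and 0.821 and 2.53 with cochlear cells, so the groups overlapped. Prox1, a factor of hair and supporting cell precursors, reached 0.267 FPKM, and Gbx2, an early dorsal otic factor, had 0.0491 in vestibular library 2 and was listed at 0 elsewhere.

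**Figure D3:**
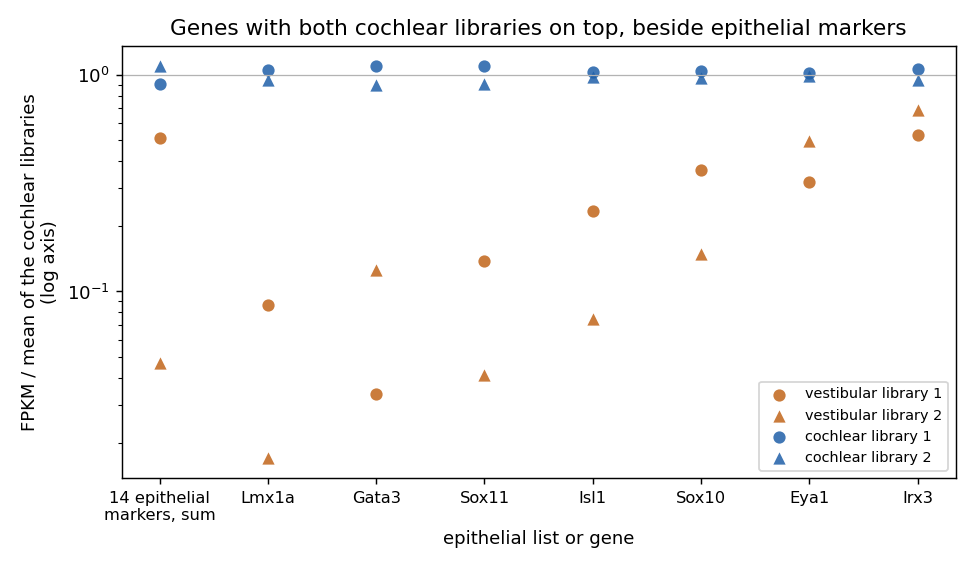
FPKM of 7 of the 12 genes on the cochlear side and of the summed 14 epithelial markers, each divided by its mean in the 2 cochlear libraries, on a log axis. Circles are libraries 1 and triangles libraries 2, vestibular in orange and cochlear in blue. The epithelial sum, Lmx1a, Sox11, Isl1 and Sox10 are lowest in vestibular library 2, while Gata3, Eya1 and Irx3 are lowest in vestibular library 1.

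The 12 genes on the cochlear side were set beside the epithelial markers, library by library. The cochlear mean of the epithelial sum was 1.96 times the level of vestibular library 1 and 21.3 times that of vestibular library 2. The gap between the vestibular libraries was not shared by all markers: for the keratin gene Krt8 the ratios were 2.27 and 64.3, and for Cdh1, which encodes E-cadherin, they were 4.16 and 3.96. For Lmx1a these ratios were 11.6 and 58.8. They were 7.21 and 24.4 for Sox11, 4.27 and 13.4 for Isl1, 2.77 and 6.74 for Sox10, 2.71 and 22.6 for Sox21, and 2.58 and 10.2 for Otx1. In these 6 genes vestibular library 2 was the lower, as in the epithelial sum, and their ratio against vestibular library 1 exceeded that of the sum. For most single epithelial markers too this ratio exceeded that of the sum, up to 4.16 for Cdh1. Krt7 (0.641) and Cldn4 (1.14) lay below the sum. Sox10, Sox21 and Otx1 had a lower ratio against vestibular library 1 than Cdh1. Eya4, with 1.51 and 2.26, and Six4, with 1.72 and 1.99, were also lower in vestibular library 2, but with a ratio against vestibular library 1 below that of the sum. Gata3 had ratios of 29.7 and 7.97, Eya1 3.14 and 2.02, Irx3 1.89 and 1.45, and Irx5 1.5003 and 1.35, so these 4 genes were lower in vestibular library 1, the library with the larger epithelial sum. The part of epithelial content in these differences was not tested.

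The 5 Dlx genes among the 41, homeobox genes several of which act in the dorsal vesicle where the semicircular canals form, all lay above in the vestibular libraries, at low levels. Dlx5, the member best known for canal formation, stood at 1.13 and 1.18 FPKM with vestibular and 0.165 and 0.0805 with cochlear cells. The ratio of vestibular to cochlear means was 9.41, and without the filter the log2 difference was 0.94 (SE 0.09, limma adjusted p = 0.127). Dlx6, which lies 9.2 kb from Dlx5 on chromosome 6 and on the other strand, was listed at 0.971 and 0.546 FPKM against 0 and 0. Dlx3 stood at 1.84 and 0.550 FPKM against 0.116 and 0.0753. The neighbours Dlx1 and Dlx2, 9.4 kb apart on chromosome 2, stood at 0.652 and 0.256 against 0.108 and 0.0702, and at 1.76 and 0.416 against 0.326 and 0.279. Dlx4, the family member outside the 41, did not separate the groups, at 0.974 and 0.0584 against 0.0573 and 0.112 FPKM. Among the 5, Dlx2 showed the smallest gap, between 0.416 in vestibular library 2 and 0.326 in cochlear library 1. Dlx1as, antisense to Dlx1, stood at 0.689 and 0.364 against 0.0714 and 0.0349 FPKM, and Dlx6os1, antisense to Dlx6, at 0.156 and 0.140 against 0 and 0.0223. Both antisense genes had the order of their partners, from which they cannot be told apart if strand was not used in counting. Of the 13 genes under the filter, 7 had both vestibular libraries above (53.8%, against 21.9% of the 5057 low genes with any value), and 5 of these 7 are Dlx genes.

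**Figure D4:**
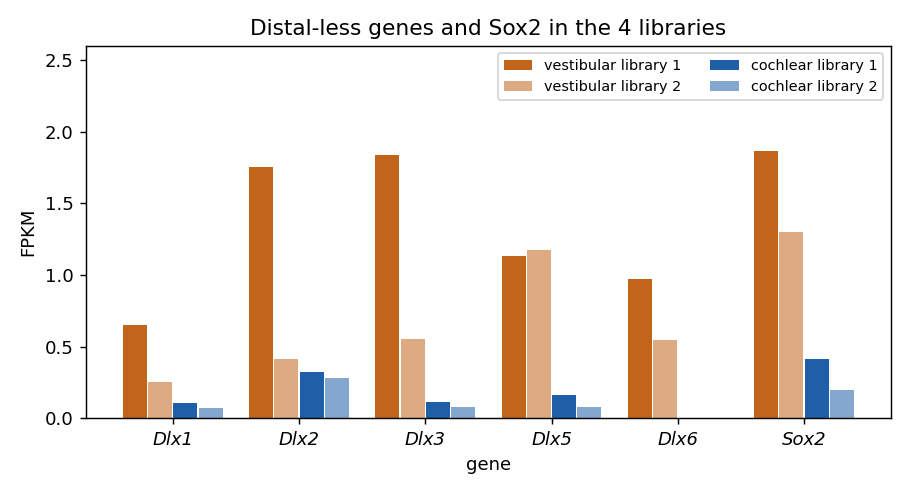
FPKM of the 5 Dlx genes and Sox2 in each library, with bars from 0. Vestibular libraries 1 and 2 are dark and light orange, cochlear libraries 1 and 2 dark and light blue. All orange bars stand above the blue bars of the same gene, none exceeds 1.86 FPKM, and Dlx6 has no blue bar because it is listed at 0 there.

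Hmx2 and Hmx3 are neighbouring homeobox genes needed for the vestibular canals, 3.8 kb apart on chromosome 7. Hmx3 stood at 22.8 FPKM in vestibular library 1, 2.92 in vestibular library 2, and 3.03 and 5.53 in cochlear libraries 1 and 2. Hmx2 stood at 8.74, 1.55, 0.316 and 2.53 in the same order. Vestibular library 1 was the highest for both genes, and vestibular library 2 lay within or below the cochlear values. Without vestibular library 1 the log2 difference of Hmx3 turned from 0.91 to -0.39, and that of Hmx2 went from 1.21 to 0.24. Oc90, an otoconial protein gene of nonsensory vestibular epithelium, stood at 7.77 FPKM in the same library and at most 0.533 in the others. Fgfr2, annotated as overlapping both Hmx genes on the other strand, stood at 19.7 and 23.7 against 10.5 and 15.4 FPKM and did not follow their order.

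Msx1 and Msx2, homeobox targets of BMP signalling, were low. Msx2 was steady within groups, at 3.05 and 3.13 FPKM with vestibular and 2.13 and 2.26 with cochlear cells (log2 difference 0.36, SE 0.16, limma adjusted p = 0.345). Msx1 stood at 1.58 and 0.437 against 0.536 and 0.262 FPKM, with groups that overlapped. Tfap2a, a factor of placode and neural crest, stood between 0.447 and 1.12 FPKM over the 4 libraries.

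Irx3 and Irx5, Iroquois homeobox genes 556 kb apart on chromosome 8, were among the more abundant of the 41. Irx3 stood at 35.0 and 45.7 FPKM with vestibular and 70.2 and 62.4 with cochlear cells (log2 difference -0.71, SE 0.18, limma adjusted p = 0.209). Irx5 stood at 20.3 and 22.6 against 32.6 and 28.4 FPKM (log2 difference -0.48, SE 0.13, limma adjusted p = 0.220). Both genes had both cochlear libraries above. Irx1 and Irx2, from the other Iroquois cluster and outside the 41, overlapped between groups, at 32.0 and 48.96 against 30.4 and 38.5 FPKM, and at 18.1 and 26.6 against 12.7 and 21.9. Irx4, from that cluster too, was listed at 0 in both vestibular libraries and at 1.43 and 0.942 in the cochlear ones.

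Meis1 and Meis2 encode homeobox cofactors that work with Pbx proteins. Meis1 stood at 4.50 and 2.08 FPKM with vestibular and 3.12 and 3.96 with cochlear cells. Meis2 stood at 15.2 in vestibular library 1 and between 3.70 and 5.91 in the other 3. Neither separated the groups. Sall1, whose human counterpart is mutated in a syndrome with hearing loss, stood at 3.94 and 1.64 against 2.80 and 2.89 FPKM, and its groups overlapped. Sall4 had 0.0776 in vestibular library 2 and was listed at 0 elsewhere.

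Id proteins lack a DNA-binding region and block basic helix-loop-helix factors by binding their E protein partners. Id3 had the highest level of the 41 genes in every library, with a mean of 224 FPKM. Id2, with a mean of 127 FPKM, came next in the vestibular libraries and lay below Sox10 in the cochlear ones. Id3 stood at 238 and 301 FPKM with vestibular and 190 and 166 with cochlear cells (log2 difference 0.59, SE 0.18, limma adjusted p = 0.236). Id2 stood at 111 and 239 against 103 and 55.4 FPKM, so only the gap between 111 and 103 kept the groups from overlapping. Its log2 difference of 1.10 (SE 0.53) was 0.54 without vestibular library 2 and 0.66 without cochlear library 2. It was 1.65 without vestibular library 1 and 1.53 without cochlear library 1. Cochlear library 2 is the library with few macrophage transcripts, and the part of macrophage content in the Id2 values was not tested. Id1 stood at 52.4 and 31.9 against 52.3 and 47.1 FPKM, with groups that overlapped. Id4, outside the 41, lay opposite to Id2 and Id3, at 10.1 and 2.72 FPKM with vestibular and 23.6 and 50.1 with cochlear cells (log2 difference -2.46, SE 0.70, limma adjusted p = 0.232). The E protein genes Tcf3, Tcf4 and Tcf12 had means between 20.9 and 27.9 FPKM. All 3 had both vestibular libraries above, as did 26.9% of all genes tested. Their log2 differences ran from 0.31 to 0.32 (limma adjusted p from 0.310 to 0.428). For Tcf4 the gap was small, between 21.96 FPKM in vestibular library 2 and 21.32 in cochlear library 1.

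The other 64 genes of these families and their partners were examined in the same fit, and 24 reached the filter. Limma called 0 of 24 (smallest adjusted p 0.0993, for Isl2), and 5 had an unadjusted p under 0.05, Isl2 included, all with the higher mean in cochlear cultures, Id4 and Sox13 among them. That is 20.8%, against 18.2% of all genes tested in either direction. By direction, 10.6% of all genes were higher in cochlear cultures at this p and 7.61% in vestibular cultures, where none of the 24 lay. Isl2 and Sall3 had passed the filter through their cochlear values alone, with a vestibular mean under 1 FPKM. Sox13, a SoxD factor, stood at 5.83 and 9.49 FPKM with vestibular and 15.8 and 15.1 with cochlear cells. Pbx2, Pbx3 and Meis3 stood at means of 18.3, 11.8 and 16.4 FPKM, with log2 differences from 0.18 to 0.24. The 6 proneural and hair cell factors, Atoh1 and Neurog1 among them, were all under the filter. Of those, Pou4f3, a hair cell factor, stood at 1.005 and 0.703 FPKM against 0.0984 and 0.0962, and Gfi1, which acts beside it, was listed at 0.472 and 0.925 against 0 and 0. Both lay above in the vestibular libraries, at levels near those of the Dlx genes.

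Within groups, the vestibular libraries differed more from each other than the cochlear ones did. The median absolute log2 difference between libraries 1 and 2 was 0.80 over the 28 genes in vestibular and 0.26 in cochlear cultures, against 0.22 and 0.17 over all genes tested. Vestibular library 2 was the lower of the pair in 17 of the 28 genes, and in 6778 of all 13200 genes tested. Pax2 (6.31 and 0.267 FPKM), Sox21 (0.875 and 0.105), Hmx3 (22.8 and 2.92), Hmx2 and Lmx1a were more than 5 times higher in vestibular library 1. Gata3 had the opposite order and stood 3.72 times higher in vestibular library 2, and Gata2, Id2, Eya2, Sox9 and Eya1 were among the others above there.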

How the data were processed

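Deposited values were FPKM, 1 per gene symbol and library, per the file headers. Per the submitters' processing notes, the authors used Cuffdiff 2.2.1, with TopHat2 2.1.1 and Bowtie2 2.2.8, and also SAMtools 0.1.18, on mm10, after TRIzol extraction and a TruSeq stranded mRNA kit per the labels' protocols. For settings, annotation, strand option and scaling the sources used here give nothing. Totals of FPKM ran from 479380 to 519122. FPKM carry no fragment counts. Ratios between libraries among 28 to 34 short RNA genes had modes from 1.02 to 1.16, and 2.05 for the cochlear pair, each resting on 4 to 8 genes, so relative depth was not established and no counting interval is given. Rpl26 was listed at 0 in all 4 libraries, so a 0 is reported only as listed.

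Groups follow the cell type label. Log2(FPKM + 1) was compared with limma 3.58.1 in R 4.3.3 (eBayes with trend, 2-sided, Benjamini-Hochberg over 13200 genes, threshold 0.05). On simulated data with spreads assigned to genes at random, only the size of the fitted differences was checked, not the rate of false calls. Named genes were the 41 members, the 12 related genes with the highest mean, overlapping genes and markers. Sox13 is the last of the 12, and Isl2, Irx4, Eya3, Lmx1b, Pou4f3 and Gfi1 were added after their values were seen. Dlx4, Sall3 and Neurog1 are also named outside that rule. Some related and marker genes are not reported here. Members and lists were chosen with earlier results of these data known. Positions are from GENCODE M21 (GRCm38).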

Additional observations from a re-analysis of the deposited data

How the results depend on the processing

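Of the 28 genes tested, 0 passed limma under the main setting and under each alternative: a pseudocount of 0.1, no filter, a mean of at least 5 FPKM, 3 other scalings, a replicate block and each library left out. Their smallest adjusted p ranged from 0.085 (quantile normalization) to 0.557 (without cochlear library 2). Over all genes 4 passed in the main fit, 2 without the filter, 0 with the replicate block and 0 with each library left out. The libraries share only a number (the correlation of the differences between libraries 1 and 2 across genes was 0.0432), and with the block 0 of the 28 genes and 0 of the 24 related genes passed. Genes whose groups did not overlap numbered 17, and 19 to 27 when 1 library was left out, where a group of 1 overlaps less easily. The 19 of 28 without cochlear library 1 or 2 stood against 77.7% and 73.3% of all genes, and the 25 and 27 without vestibular library 1 or 2 against 80.5% and 78.6%. With no filter the median log2 difference over all 41 genes was 0.09, against -0.31 over the 28, which ran from -0.55 without vestibular library 1 to -0.07 without vestibular library 2.

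Of the 28 genes, 18 kept their direction in every alternative they entered; 19 of the 28 entered that with a mean of at least 5 FPKM. With a pseudocount of 0.1 the difference of Sox11 was -3.44, against -2.26. The other 10 changed direction with a library left out, with differences from -0.71 to 0.012 for Sox9, -0.047 to 0.56 for Sox4, -0.39 to 2.21 for Hmx3, -0.38 to 1.40 for Meis2, -1.88 to 0.65 for Pax2, -0.22 to 0.79 for Gata2, -1.34 to 1.01 for Otx2, -0.54 to 0.36 for Sall1, -0.55 to 0.28 for Meis1 and -0.62 to 0.077 for Id1. The cause was not tested. Fits with 1 library in a group assume that it varies like the other group. Depth is not given, so the counting error of low values, those of the Dlx genes among them, could not be estimated.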
